A study of Mus musculus with 16 samples.

Results

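The cell cycle and DNA replication families examined here are the genes whose symbols mark them as licensing and replication factors (Orc, Mcm, Pola, Pold, Pole, Rrm1, Rrm2), E2F factors, A, B, D and E cyclins, CDKs and their inhibitors, CDC genes other than Cdc42, Aurora, Bub and Polo-like kinases, centromere proteins, mitotic kinesins, Top2a or Mki67. The rule uses gene names and no measured values. Of 6258 rows with a gene name in the 3 tables of group values, which hold 6515 rows in all, 45 belonged to these families, and they stood for 43 distinct genes. Of these rows 41 were in the table of quiescent cells, 3 in that of GFP-intermediate cells and 1 in that of GFP-high cells.

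RNA was sequenced from 16 samples of mouse hepatic stellate cells (HSCs), the vitamin A-storing cells beside the liver sinusoids that turn into scar-forming myofibroblasts after injury, in 6 groups. Quiescent HSCs (qHSCs) came from 3 uninjured, weaned WT1CreERT2;Ai14 animals of strain C57/Bl6, whose cells were split by the lineage label into positive and negative fractions, so that label-positive and label-negative cells (n = 3 each) carried 1 Wt1 allele with a tamoxifen-inducible Cre knocked in and the Ai14 red reporter. Tamoxifen given to the mother at E10.5 induced the label in cells then expressing Wt1, which in the liver are mesothelial, and the fractions are of the same animals. Their sex is male by the sample labels and female by the study's methods. Activated HSCs (aHSCs) came from 6 adult male C57/Bl6 animals injured with CCl4 for 8 weeks. Control animals were PDGFRbCre;WT1_+_GFP;Ai14 and WT1-deleted animals PDGFRbCre;WT1_fl_GFP;Ai14, so that both carried GFP at 1 Wt1 allele, the Ai14 reporter and a constitutive Cre. That Cre is driven by PDGFRβ sequences that are also active in the germline. RFP-positive cells were sorted into a GFP-high fraction (3 control and 3 deleted samples) and a GFP-intermediate fraction, called low in the labels (2 and 2), and 1 control sample was pooled from 2 animals. Wt1 itself was not analysed here.

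Before a cell copies its DNA, the origin recognition complex (ORC) and CDC6 load the MCM2-7 helicase on origins in G1. D cyclins with CDK4 or CDK6, and then cyclin E with CDK2, release E2F factors from the retinoblastoma proteins, and E2F turns on replication genes, while CDK inhibitors hold these kinases back. Cyclin B with CDK1, the Polo-like and Aurora kinases, spindle kinesins and the kinetochore drive mitosis, and many of the genes they need are repressed in resting cells by the DREAM complex through CHR and E2F elements of their promoters. HSCs rest outside the cell cycle in healthy liver and proliferate when activated, and resting tissue contains few Ki67-positive cells.

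Each value below is the authors' FPKM of a group (mapped fragments scaled by transcript length and by library size), 1 per group and gene, and every row with a gene name lies below 0.05 by the adjusted p-value of their deposited Cuffdiff2 comparison. Loci without a gene name have no row in those comparisons, and both WT1 deletion tables hold more named genes than the study's text counts as changed, a difference whose reason is not given in the sources used here. The replicates had been combined before deposit, so no spread between animals, no overlap of samples and no test of any difference can be given, and depth is unknown. A gene without a row was not among those called and may or may not have changed. FPKM is scaled by transcript length, which allows levels of different genes to be set side by side within a table. In sorted bulk samples a lower value may come from fewer cells of a type or from less RNA per cell, and these cannot be told apart.

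The promoters of 4 members are shown, Mcm3 and Mcm5 as the helicase subunits called after WT1 deletion and Top2a and Mki67 as the proliferation genes with the largest differences among the core genes called in qHSCs. Each run is the 250 bases upstream of the transcript start in RefSeq, build GRCm38.p6, 5′ to 3′ on the strand of the gene, with matches on either strand to 4 motifs in capitals. TTTGGCGC and TTTCGCGC are E2F elements, the only spellings of that element searched. TTTGAA is the CHR element, short for cell cycle genes homology region. The NF-Y box is spelled CCAAT. The windows are chr1:20820313-20820562 (minus strand) for Mcm3, chr8:75109259-75109508 (plus strand) for Mcm5, chr11:99024190-99024439 (minus strand) for Top2a and chr7:135716380-135716629 (minus strand) for Mki67.
Mcm3: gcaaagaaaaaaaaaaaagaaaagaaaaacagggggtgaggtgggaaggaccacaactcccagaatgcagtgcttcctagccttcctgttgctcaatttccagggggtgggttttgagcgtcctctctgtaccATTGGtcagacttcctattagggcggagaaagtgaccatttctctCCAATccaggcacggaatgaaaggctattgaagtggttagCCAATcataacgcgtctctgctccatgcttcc
Mcm5: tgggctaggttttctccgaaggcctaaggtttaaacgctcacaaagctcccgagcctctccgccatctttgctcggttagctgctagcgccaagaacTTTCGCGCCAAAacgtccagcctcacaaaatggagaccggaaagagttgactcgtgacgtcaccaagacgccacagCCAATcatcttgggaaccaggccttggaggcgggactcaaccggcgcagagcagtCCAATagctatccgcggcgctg
Top2a: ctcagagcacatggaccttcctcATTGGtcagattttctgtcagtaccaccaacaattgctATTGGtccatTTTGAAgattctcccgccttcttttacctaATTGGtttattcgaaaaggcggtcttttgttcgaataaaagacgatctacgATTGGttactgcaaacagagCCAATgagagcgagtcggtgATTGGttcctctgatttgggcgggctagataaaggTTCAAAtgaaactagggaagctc
Mki67: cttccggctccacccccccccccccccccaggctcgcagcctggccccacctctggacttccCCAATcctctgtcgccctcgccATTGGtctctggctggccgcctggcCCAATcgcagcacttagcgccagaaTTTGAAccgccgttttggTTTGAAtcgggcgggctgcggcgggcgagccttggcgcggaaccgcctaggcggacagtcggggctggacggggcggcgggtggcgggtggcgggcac

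A window reaching from 250 bases before to 50 bases after the start was found for 39 of the 43 members, and Cdc25c, Aurkb, Cdkn1c and Ccnd1 were not matched. An E2F element of either spelling lay in 5 of the 39 (12.8%), namely E2f2, Kif15, Mcm3, Mcm5 and Orc1, against 0.929% of all 27025 genes with a window. In Mcm5 the element TTTCGCGC, from 153 to 146 bases upstream, overlapped a TTTGGCGC match on the opposite strand, from 149 to 142 bases upstream. The match of Mcm3 lay after the start, at bases 39 to 46, and is therefore outside the run shown. TTTGAA was found in 13 of the 39 (33.3%), against 20.2% of all genes, and CCAAT in 27 of the 39 (69.2%), against 41.1%. Of the 27 members lower in label-positive qHSCs that had a window, 11 (40.7%) held TTTGAA, and of the 10 higher members 2 (20%) did, Cdkn2b and Kif4. These are matches of letters, which do not show that a factor binds. Genes with several annotated starts were counted once if any window had a match.

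**Figure D1:**
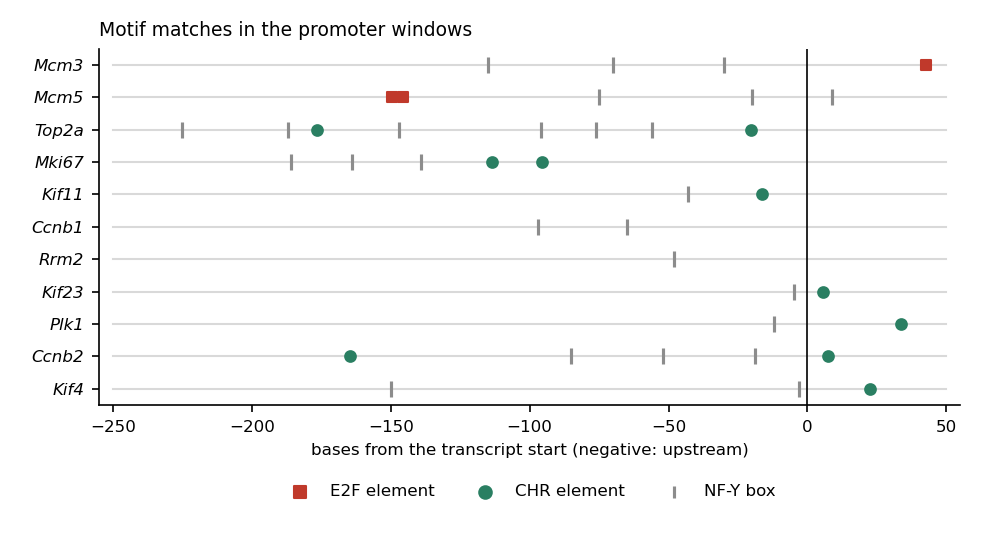
Positions of motif matches, in bases from the transcript start, in the windows of Mcm3, Mcm5 and the 9 proliferation core members called in qHSCs that had a window. Squares mark E2F elements, circles CHR elements and bars NF-Y boxes on either strand. All 9 core members held an NF-Y box, against 41.1% of all genes with a window, and 7 held a CHR element, against 20.2%. The only E2F spellings searched were TTTGGCGC and TTTCGCGC, whose matches in this set lay in Mcm3 and Mcm5.

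The comparison of label-positive with label-negative qHSCs asks how cells that carry the lineage label in the HSC isolate differ from the unlabelled cells of that isolate. Both fractions are called qHSCs after their labels, which the markers bear out only in part. The HSC markers called lay far below the most abundant markers of other cells. The sinusoidal endothelial genes Clec4g, Stab1 and Stab2 had an FPKM of 2787, 1093 and 845 in label-positive cells. Of the 6 HSC markers called, Dcn and Hgf stood there at 49.0 and 44.1. Rgs5, Colec11, Pdgfrb and Ngfr stood at 3.29, 0.882, 0.370 and 0.0344. In label-negative cells Clec4g stood at 1022 and the leukocyte gene Ptprc at 337. There Dcn had 109 and Hgf 17.0, with Pdgfrb, Rgs5, Ngfr and Colec11 at 0.905, 0.750, 0.488 and 0.221. Most of the called members were lower in the label-positive fraction, among them Top2a and Mki67 and the genes for both B cyclins, PLK1 and Aurora B. A smaller set was higher, led in level by Plk2, Ccnd1, Cdkn1c and Cenpb. Of the 41 members 29 were lower (70.7%) and 12 higher (29.3%), whereas 49.6% of all 5716 rows of the table were lower and 50.4% higher. The median log2 ratio of label-positive to label-negative FPKM was -1.25 over the members and 0.64 over all rows. The lower members had a median of -1.42, smaller in size than the -2.02 of all lower rows, and the higher members had a median of 1.29, close to the 1.31 of all higher rows. Of 148 protein-coding names in GENCODE vM21 that match the families 41 had a row (27.7%), against 21.9% of all protein-coding names. All 41 members matched a GENCODE name, but only 4799 of the 5714 distinct names called in qHSCs did (84%). The 21.9% may therefore be too low as a background, and it also counts genes whether or not these cells express them.

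Levels were low. The median FPKM of the members in their higher fraction was 4.28, against 15.03 over all rows. In that fraction 15 of the 41 reached 10, against 3312 of all 5716 rows. Under 1 in both fractions stayed 4 of the 41, against 632 of the 5716. Of the 18 members that reached 5, a limit chosen after the data were seen, 7 were higher and 11 lower in label-positive cells. Lower members outnumbered higher ones less strongly there than among all 41, and the share lower among all rows reaching 5 was not computed. The lowest log2 ratio was -2.54 (E2f2) and the highest 1.71 (Cdkn2a).

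**Figure D2:**
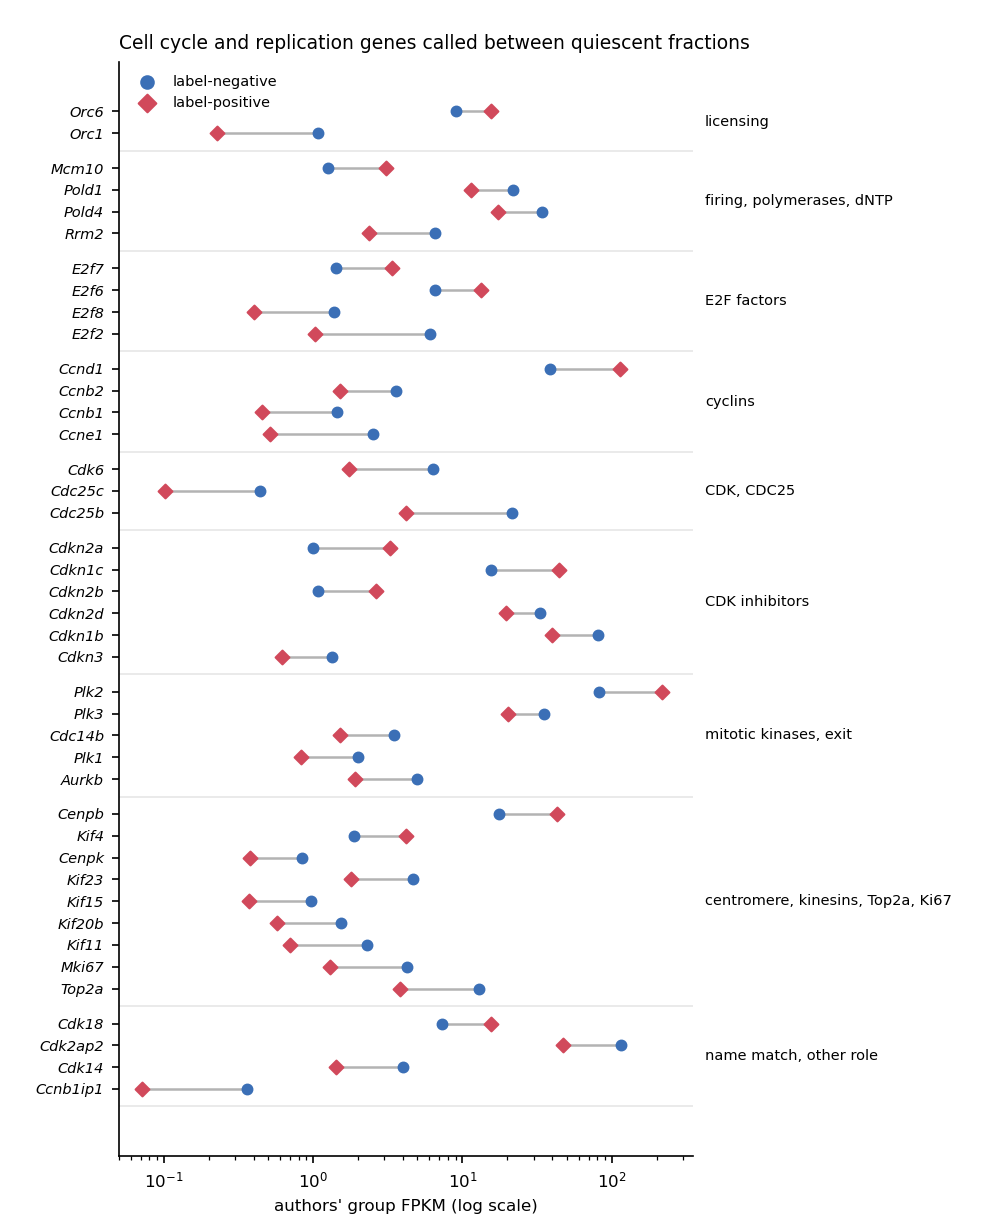
FPKM of the 41 members called in qHSCs, on a log axis, in label-negative (circles) and label-positive cells (diamonds), 1 authors' value per group without error, ordered by role. In 29 genes the diamond lies to the left of the circle and in 12 to the right. The genes with higher label-positive values include the 2 most abundant in that fraction, Plk2 at 216 and Ccnd1 at 114.

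Among the factors that license origins, 2 of 15 were called (13.3%, against 21.9% of all protein-coding names), in opposite directions. The shares called of the lists that follow stand beside the same 21.9%. Orc6, an ORC subunit, stood at 9.08 FPKM in label-negative cells against 15.5 in label-positive ones, a log2 ratio of 0.77. Orc1, the ATP-binding subunit whose level is regulated through the cell cycle, had 1.08 and 0.228, a log2 ratio of -2.24. Orc1 is one of the members with an E2F element in its promoter. None of the genes of the MCM2-7 helicase had a row in qHSCs.

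Of the 16 names listed for origin firing, the polymerases and nucleotide supply, 4 were called (25%), 1 higher and 3 lower. Among these names Cdc45 and Cdc45l stand for the same gene. Mcm10, which helps the helicase start to unwind, was higher in label-positive cells (1.25 and 3.06 in label-negative and label-positive cells, log2 ratio 1.29). The catalytic subunit of DNA polymerase delta, Pold1, had 21.8 and 11.5 (-0.93), and its accessory subunit Pold4 had 34.0 and 17.2 (-0.98). Rrm2, the ribonucleotide reductase subunit that is made in S phase, had 6.55 and 2.36 (-1.47). The polymerase subunits thus remained at an FPKM above 10 in both fractions, whereas Rrm2 lay below it in both.

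Of the 8 E2F factors 4 were called (50%), 2 in each direction. E2f2, an activator of S-phase genes, had the lowest ratio of all members, at 6.02 in label-negative cells against 1.04 in label-positive ones, a log2 ratio of -2.54. The repressor E2f6, which does not bind the retinoblastoma protein, had 6.56 and 13.2 (1.01). The atypical repressors E2f7 and E2f8, which act on the same targets, differed in opposite directions. E2f7 had 1.43 and 3.39 (1.25), and E2f8 had 1.38 and 0.400 (-1.79).

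The 4 called of 10 cyclins (40%) did not share a direction. Ccnd1, the D cyclin that couples growth signals to G1, was the one higher cyclin, at 38.6 in label-negative cells against 114 in label-positive ones, a log2 ratio of 1.57. Ccne1, the cyclin E that acts at the G1 to S transition, had 2.53 and 0.513 (-2.30). The mitotic cyclins Ccnb1, at 1.45 and 0.458 (-1.67), and Ccnb2, at 3.61 and 1.51 (-1.25), were lower too. In label-positive cells Ccnd1 therefore stood at over 100 while the other called cyclins lay between 0.458 and 1.51.

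All 3 kinases and CDC25 phosphatases called of 8 (37.5%) were lower. Cdk6, a partner of D cyclins that is abundant in blood cells, had 6.33 in label-negative cells against 1.74 in label-positive ones (-1.87). The phosphatases remove inhibitory phosphates from CDKs, and Cdc25b had 21.4 and 4.21 (-2.34) and Cdc25c 0.444 and 0.102 (-2.12). Cdk1, Cdk2 and Cdk4 had no row.

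Of the 8 CDK inhibitors 6 were called (75%), 3 in each direction. Cdkn2a, the INK4a and ARF locus, and its neighbour Cdkn2b on chromosome 4, which encodes INK4b, were both higher in label-positive cells. Cdkn2a had 0.996 and 3.26 (log2 ratio 1.71), and Cdkn2b had 1.07 and 2.65 (1.31). Cdkn1c, which encodes p57 and is imprinted, was more abundant, at 15.6 and 44.5 (1.52). Cdkn1b, which encodes p27, had the highest level of the called inhibitors in label-negative but not in label-positive cells, and it was lower in the latter, at 81.5 and 39.7 (-1.04). Cdkn2d, a further INK4 gene, had 32.9 and 19.7 (-0.74). Cdkn3, a phosphatase that acts on CDK2 and is itself made in dividing cells, had 1.35 and 0.617 (-1.13). Among the Cip/Kip genes p57 and p27 thus differed in opposite directions and had nearly the same level in label-positive cells.

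Of the 19 mitotic kinase, checkpoint and exit genes 5 were called (26.3%). Plk2, an immediate early gene of the Polo-like family that acts on centrioles and in stress, was the one higher gene and the most abundant member in label-positive cells, at 82.5 in label-negative cells against 216 in label-positive ones, a log2 ratio of 1.39. Its relatives were lower. Plk3, a stress-responsive kinase, had 35.2 and 20.1 (-0.81), and Plk1, the kinase needed for mitotic entry, had 1.99 and 0.833 (-1.25). Aurkb, the kinase of the chromosomal passenger complex, had 4.95 and 1.91 (-1.37), and the phosphatase Cdc14b had 3.50 and 1.51 (-1.21).

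The group of centromere proteins, mitotic kinesins, Top2a and Mki67 held 28 genes, of which 9 were called (32.1%), 7 lower and 2 higher. Top2a, the topoisomerase that untangles sister chromatids, had 12.9 in label-negative cells against 3.83 in label-positive ones (-1.75). Mki67, which encodes the proliferation marker Ki67, had 4.28 and 1.30 (-1.72). The spindle motor Kif11 had 2.28 and 0.704 (-1.70), the cytokinesis motor Kif23 had 4.68 and 1.79 (-1.38), and Kif15, Kif20b and Cenpk were lower at FPKM of at most 1.53. Cenpb, which binds centromeric repeats and is expressed outside mitosis too, was higher, at 17.4 and 42.7 (1.29). Kif4, a chromosome-bound kinesin, was also higher, at 1.88 and 4.19 (1.16), unlike the other called kinesins.

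The 4 remaining called members, of 33 such genes (12.1%), match the families by name but act mainly elsewhere. Cdk2ap2, which binds CDK2, had 115 in label-negative cells against 46.9 in label-positive ones (-1.30), and Cdk14, a cyclin Y-dependent kinase of Wnt signalling, had 4.0 and 1.42 (-1.49). Ccnb1ip1, a meiotic recombination gene, was barely detected, at 0.361 and 0.0720 (-2.33). Cdk18, a kinase of the PCTAIRE group, was higher, at 7.36 and 15.6 (1.09).

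A core of 30 members that dividing cells of most types express was looked at as a set. It was chosen with earlier results of these data known, so its counts only describe these data. In qHSCs 10 of the 30 had a row (33.3%, against 21.9% of all protein-coding names). Of these, 9 were lower in label-positive cells, whereas 49.6% of all rows were lower. The 9, lower by 2.38- to 3.36-fold, were Ccnb2, Plk1, Aurkb, Kif23, Rrm2, Ccnb1, Kif11, Mki67 and Top2a. Their levels ran from 1.45 to 12.9 in label-negative and from 0.458 to 3.83 in label-positive cells. Kif4 was the exception, and 20 of the 30, Cdk1, Ccna2 and Cdc20 among them, had no row. The lower core genes thus lay in a narrow band of ratios at low levels.

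Genes of the same processes that the family names leave out were taken from 3 further lists. These lists too were chosen with earlier results of these data known, so their shares and directions only describe these data. Of 36 other mitosis genes 16 were called (44.4%, against the 21.9% of all protein-coding names), and all 16 were lower in label-positive cells, with a median log2 ratio of -1.45, against 49.6% lower among all rows. Smc4, a condensin subunit, had the highest level, at 76.5 in label-negative cells against 23.8 in label-positive ones (-1.69). It was followed by Stmn1, a microtubule-destabilising protein, at 22.4 and 14.1 (-0.67), Racgap1 of the central spindle at 18.9 and 5.07 (-1.90), the condensin subunit Ncapd2 at 15.8 and 6.0 (-1.40), and the ubiquitin-conjugating enzyme Ube2c at 7.05 and 2.78 (-1.34). Of 30 other replication genes 3 were called (10%, below the 21.9% of all names). Dbf4, the activator of the CDC7 kinase, had 16.8 and 8.97 (-0.90), the maintenance methylation factor Uhrf1 had 4.42 and 1.87 (-1.24), and Timeless of the fork protection complex was higher, at 24.2 and 53.4 (1.14).

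Of 31 other cell cycle control genes 7 were called (22.6%, near the 21.9% of all names), 5 lower and 2 higher. Myc, the growth-promoting transcription factor, had 78.7 in label-negative cells against 19.7 in label-positive ones (-2.00). The CDK-binding protein Cks2 had 27.1 and 12.2 (-1.15), the E2F partner Tfdp1 had 13.6 and 7.11 (-0.93), and Ccng2, a cyclin associated with arrest, had 31.8 and 16.9 (-0.91). Gadd45g, a stress gene that can restrain CDK1, was higher, at 87.0 and 195 (1.16). Of the 5 genes of this list with the highest levels, Gadd45g was higher and the other 4 were lower.

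Markers of other cell types moved with these differences. All 10 of 10 lymphocyte markers were lower in label-positive cells, where their summed FPKM was 74.3 against 1499 in label-negative cells, with Cd3e at 101 and 3.68 and Cd79a at 184 and 3.51 in label-negative and label-positive cells. The 7 called of 8 neutrophil markers were also lower, with a sum of 407 against 1970. All 8 sinusoidal endothelial markers and all 8 hepatocyte markers were higher in label-positive cells, with sums of 6661 against 2418 and of 1108 against 169. Macrophage markers were split. Of the 8 called, from a list of 11 names in which Adgre1 and Emr1 stand for the same gene, 6 were higher and 2 lower. Their sum was lower in label-positive cells, at 1027 against 1756, with Lyz2 alone at 289 against 1283. No marker was listed at 0 in either fraction. Of 9 HSC markers 6 were called, 3 in each direction. Dcn had 109 in label-negative cells against 49.0 in label-positive ones and Hgf had 17.0 and 44.1, whereas Pdgfrb was at 0.905 and 0.370, and Lrat, Des and Reln had no row. The part of these other cell types in the differences of the cell cycle genes was not tested.

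**Figure D3:**
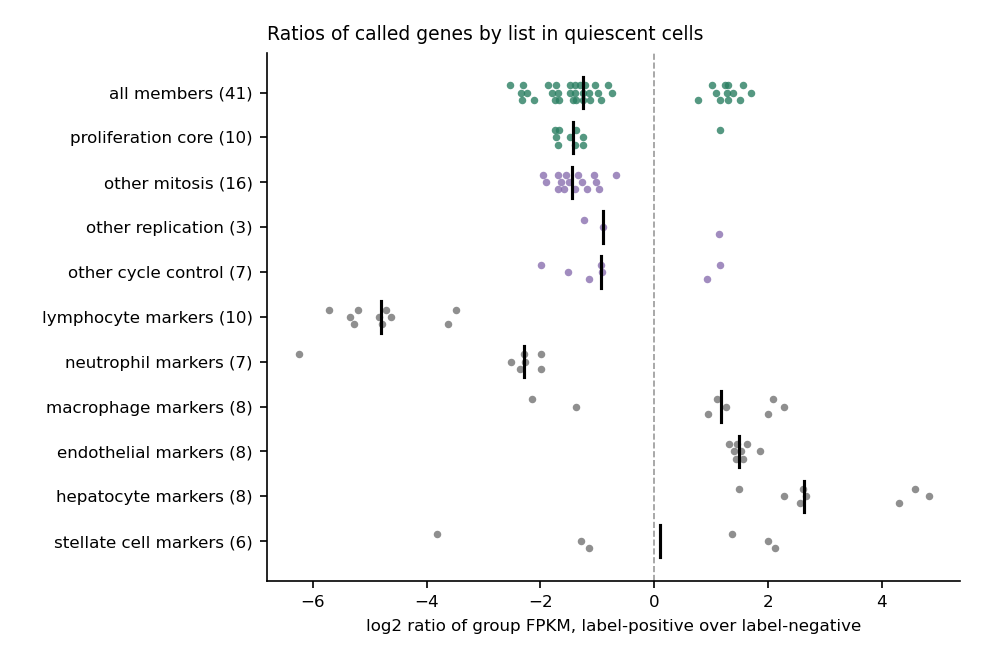
Log2 ratio of label-positive to label-negative FPKM for each called gene, by list, with the number called in brackets, the median as a black bar and a dashed line at 0. The medians of all members (-1.25), the proliferation core (-1.43) and the other mitosis genes (-1.45) lie left of 0, as do those of the lymphocyte (-4.81) and neutrophil markers (-2.28), while those of the endothelial (1.49) and hepatocyte markers (2.64) lie right of it.

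The comparisons of WT1-deleted with control aHSCs ask what loss of WT1 changes in cells already activated by injury. In the GFP-intermediate fraction 3 members were called, the helicase genes Mcm3 and Mcm5 and the kinase Cdk18. They are 2.03% of the 148 protein-coding names that match the families, close to the 1.75% of all protein-coding names with a row, so the number called is no result about the families. All 3 were lower after deletion, as were 62.8% of the 419 named rows of that table. Mcm3 stood at 16.9 FPKM in control cells against 5.84 in deleted ones, a log2 ratio of -1.53. Mcm5 had 14.9 and 4.66, a log2 ratio of -1.67. Both are subunits of one ring-shaped helicase, in which MCM2 and MCM5 form the gate through which DNA enters, and they stood at similar levels in each group. Cdk18 had 6.64 and 2.49, a log2 ratio of -1.42. The median over the 3 was -1.53, against -1.33 over all named rows and -1.61 over the lower ones.

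**Figure D4:**
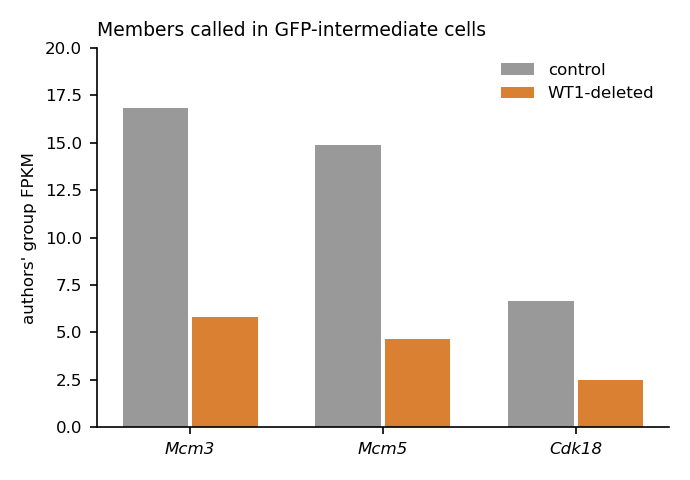
FPKM of the 3 members called in GFP-intermediate aHSCs, as bars from 0 for control and WT1-deleted cells, 1 authors' value per group from 2 samples each and no error. Mcm3 and Mcm5 lie at 16.9 and 14.9 in control cells and at 5.84 and 4.66 in deleted cells, and Cdk18 falls from 6.64 to 2.49.

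The other genes of MCM2-7 had no row in the GFP-intermediate table, and neither had any E2F factor, cyclin, CDK inhibitor, mitotic kinase, centromere protein or kinesin of the families. None of the other mitosis, replication and cell cycle control genes of the 3 further lists had a row either. Both Mcm3 and Mcm5 belong to the core of proliferation genes, and their promoter windows each held an E2F element and several NF-Y boxes. The E2F element of Mcm3 lay after the start, outside the run shown above. Cdk18 held an NF-Y box and no E2F element of either spelling searched in its window. Markers of other cells moved with these genes, since all 8 called of 11 macrophage markers were lower after deletion, with a summed FPKM of 4831 in control and 1165 in deleted cells, as were 4 neutrophil markers (690 and 211) and the endothelial markers Stab1 and Cdh5 (138 and 38.9). No lymphocyte marker had a row. Of 9 HSC markers 3 were called, 2 higher and 1 lower after deletion. Rgs5 had 1.41 in control and 8.197 in deleted cells, Colec11 had 2.92 and 10.7, and Hgf had 9.45 and 3.35. In control cells these lay far below the macrophage gene Ctss at 1799 and the joint row of C1qb and C1qc at 1463. The part of the other cell types in the lower Mcm3, Mcm5 and Cdk18 values was not tested.

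In the GFP-high fraction the families had a single row. Ccnb1ip1 was listed at 0 in control cells and at 0.379 in deleted cells, higher after deletion as were 77.2% of the 123 named rows. This 1 gene is 0.676% of the 148 names, where 0.447% of all protein-coding names had a row. At that level, and with 0 in one group, no fold change is given. No gene of licensing, replication, the cyclin-CDK system or mitosis was called there. Of the markers, 5 neutrophil genes were lower after deletion, with sums of 489 and 141, and no macrophage or lymphocyte marker had a row.

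Only Cdk18 and Ccnb1ip1 of the families were called in more than 1 table. Cdk18 was higher in label-positive than in label-negative qHSCs (15.6 and 7.36) and lower in WT1-deleted than in control GFP-intermediate aHSCs (2.49 and 6.64). Ccnb1ip1 was lower in label-positive qHSCs (0.0720 and 0.361) and higher in WT1-deleted GFP-high aHSCs (0.379 and 0). The tables were normalised separately, so these levels are set side by side without a comparison between tables.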

How the data were processed

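RNA-seq values of 16 samples in 6 groups were used, grouped by the sample labels. The authors sorted cells into lysis buffer, sequenced on an Illumina HiSeq and, per the study's methods, mapped reads with bowtie 2 and called genes with Cuffdiff2 (threshold 0.05 for the adjusted p-value). The submitters' processing notes name TopHat2 2.0.3, Cufflinks 2.0.1, DESeq2 and the builds mm9 and mm10, without saying which build each table used. The authors deposited 1 FPKM per group and gene in 3 tables, so replicates had been combined. Every row with a gene name has an adjusted p-value below 0.05 in the authors' comparisons, and the WT1 deletion tables hold more named genes than the study's text counts. Further deposited tables hold the authors' own fold changes and p-values and were used for nothing else. The deletion tables hold 108 (GFP-high) and 149 (GFP-intermediate) loci without a gene name. The number of value columns not used is 0 in these tables. Depth is unknown.

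Members were found by a name rule applied to every part of a gene name, and log2 ratios of the group FPKM were computed without a pseudocount. The members, lists and motifs were chosen with earlier results of these data known. By rule the text names members called after WT1 deletion, in qHSCs those of each role list that reached an FPKM of 5 or with the largest rise or fall, and the 5 most abundant genes of each further list; other members and markers were named after their values were seen. Promoters were shown for licensing or core members called after WT1 deletion and for the 2 core members with the largest log2 ratio in qHSCs, taken as its size. Promoter windows were those of RefSeq (GRCm38.p6, 32851 windows), and protein-coding names those of GENCODE vM21, to which 4799 of 5714 distinct names of the qHSC table matched (84%). The alternatives were an FPKM of at least 1, an absolute log2 ratio of at least 1, rows that name 1 gene only, exclusion of members with another main role, pseudocounts of 1 and 0.1 and, added after the data were seen, an FPKM of at least 5. The scripts were tested on simulated data. Calculations used Python 3.11.15, pandas 2.3.3 and numpy 2.4.6, and figures matplotlib 3.10.9.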

Additional observations from a re-analysis of the deposited data

How the results depend on the processing

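No paired analysis was possible because the tables used here hold 1 FPKM per group, although label-positive and label-negative qHSCs came from the same animals, and leaving out a replicate could not be run for the same reason. In qHSCs 41 members were called, 12 higher and 29 lower. Among those that reached an FPKM of 1 these were 37 called, 12 higher and 25 lower, with an absolute log2 ratio of at least 1 they were 36, 11 and 25, without members of another main role 37, 11 and 26, and with rows naming 1 gene only they did not change. Among those that reached an FPKM of 5, a limit chosen after seeing the data, 18 were called, 7 higher and 11 lower, since fewer genes reached that level. The excess of lower members was smaller at that limit, where the share lower among all rows was not computed. The median log2 ratio of -1.25 was -0.75 with a pseudocount of 1 and -1.16 with 0.1. In GFP-intermediate aHSCs 3 members were called and lower under every filter, or 2 without Cdk18 as a member of another main role, and the median of -1.53 was -1.39 with a pseudocount of 1 and -1.51 with 0.1. In GFP-high aHSCs the 1 member called, Ccnb1ip1, is below an FPKM of 1 and has another main role, so 0 were called and 0 higher under each of these exclusions. Low FPKM limits the precision of most members, and read counts, depth and the spread between animals were not used here for any value.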
